A study of Gallus gallus with 6 samples.

Results

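A set of 20 chicken transcripts that are also present in embryonic stem (ES) cells differed at least 1.8-fold between RNA libraries of freshly laid embryos. Members were chosen by their levels in CPM (counts scaled to 1000000 per library), taken over the 15900 gene IDs listed for both groups. The rule asked for a mean of at least 20 CPM in the embryos, a highest over lowest embryo library of at least 1.8, and a mean of at least 0.5 CPM in the ES cells. Of 6295 IDs past both level limits, 20 (0.318%) also passed the limit on the embryos. That ratio of highest to lowest CPM within a group is called the spread here. Because the embryo values chose the members, their spread in embryos is given as a description with no test. The rule also named 6 IDs with 1 transcript each to be left out, and none of them reached the limit, with embryo spreads of 1.35 to 1.48.

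The ES cell libraries (cES, 3 libraries, wild type) came from a line at passage 10, derived from freshly laid embryos at stage EGK.X and grown on irradiated mouse embryonic fibroblasts at 38 °C. Their medium held 10 ng/ml chicken LIF, 10 ng/ml ovotransferrin and the inhibitors IWR-1 (2.5 µM), Gö6983 (2 µM) and SB431542 (2 µM). The embryo libraries (EGKX, 3 libraries, wild type) came from primary cells of stage EGK.X embryos, and the eggs of both groups had been kept at 16 °C. The sample titles give stage X, while the growth protocol speaks of eggs from stage X up to stage XII. The labels do not give the sex of the embryos, the number of embryos in a library, or whether the libraries of a group were separate cultures or embryos. The tests therefore judge the difference between the groups against library-to-library spread, part or all of which may be technical.

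At stage X the chick embryo is a disc of cells on the yolk, with a translucent centre called the area pellucida and a ring around it called the area opaca. The upper layer is the epiblast, from which the body forms, and scattered cells beneath it begin to make the hypoblast. The embryo has by then switched on its own genome, and RNA laid down by the mother is still being replaced. ES cell lines are taken from this stage because its cells have not yet been committed to a germ layer.

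The libraries held 13007413 to 13403975 expected counts in ES cells and 16068898 to 17082488 in embryos, of which the shared IDs held 95.8% and 96.4% to 96.6%. The 10 most abundant IDs took 5.76% to 5.91% of the counts of each ES cell library, and 11.1%, 11.2% and 15.2% in embryo libraries 1, 2 and 3. The 6 left out IDs alone took 2.11% to 2.14% of the shared counts in ES cells and 8.29%, 8.40% and 11.6% in embryo libraries 1, 2 and 3. Each CPM of embryo library 3 is therefore taken over a total with more of these 6 IDs in it. The files give the IDs without gene names, and 0 of them were found in the RefSeq gene table, and so a member has no gene name or function here. The labelled cell type could not be checked against marker genes.

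The members had mean levels of 1.28 to 622 CPM in ES cells and 20.4 to 163 CPM in embryos. Their median was 46.0 CPM in ES cells and 36.1 CPM in embryos, against 66.5 and 68.0 CPM for the other 6275 IDs past the level limits. Every embryo value of a member rested on 204 to 4730 expected counts. The spread in embryos had a median of 1.96 and went up to 3.29, while the other IDs had a median of 1.13. At a spread of 2 or more there were 9 members, and at 2.5 or more there were 5. For each of the 20 the lower bound of the 95% counting interval of the spread was 1.62 or higher (exact Clopper-Pearson interval, which covers counting error only). The interval was taken on the same embryo values that chose the member. It describes the counts, tests nothing, and does not keep its 95% coverage after that choice. The members just inside the limit were ENSGALG00000016651 and ENSGALG00000042607, both with a spread of 1.84. The IDs just outside it were ENSGALG00000005572 at 1.797 and ENSGALG00000037791 at 1.788.

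**Figure D1:**
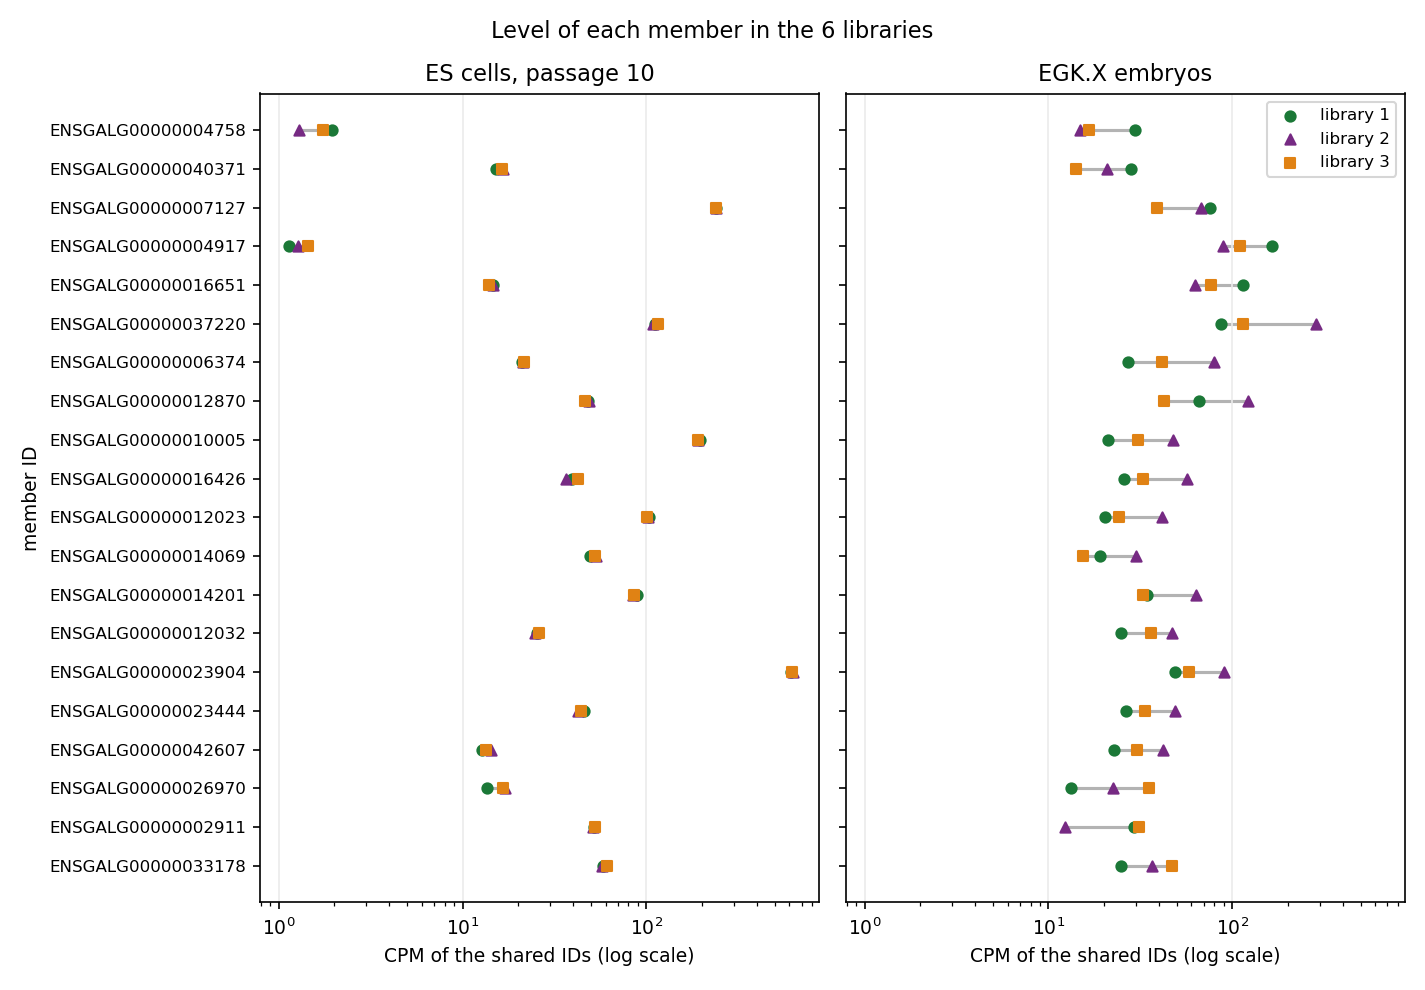
CPM of each of the 20 members (rows) in the 3 ES cell libraries (left panel) and the 3 embryo libraries (right panel), on a log axis. Symbols mark the library number, which does not pair the groups, and grey lines join the lowest and highest library. The points of a member lie close together in ES cells, where 15 of the 20 have a spread of 1.1 or less, and apart in embryos, where the rule asked for 1.8 or more.

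Embryo library 2 was the highest for 12 of the 20 members (60.0%), library 1 for 5 and library 3 for 3. Among the other IDs past the level limits, library 2 was highest for 39.9%, library 1 for 46.6% and library 3 for 13.5%. Library 1 was the lowest for 11 members (55.0%), against 20.5% of the other IDs, and library 3 was the lowest for 5 members (25.0%), against 47.5% of the others. The commonest order among members, high in library 2 and low in library 1, held for 9 members and for 955 of the 6275 other IDs. In such bulk libraries, more cells of a type and more RNA per cell cannot be told apart. These shares come from values the rule used, so they describe the set and carry no test. Scaling by TMM factors kept all 20 members and added 3 IDs, and scaling by DESeq2 size factors kept all 20 and added 2. The shares of the other IDs are given only for CPM without these factors. In that CPM the total of library 3 held more of the 6 left out IDs.

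**Figure D2:**
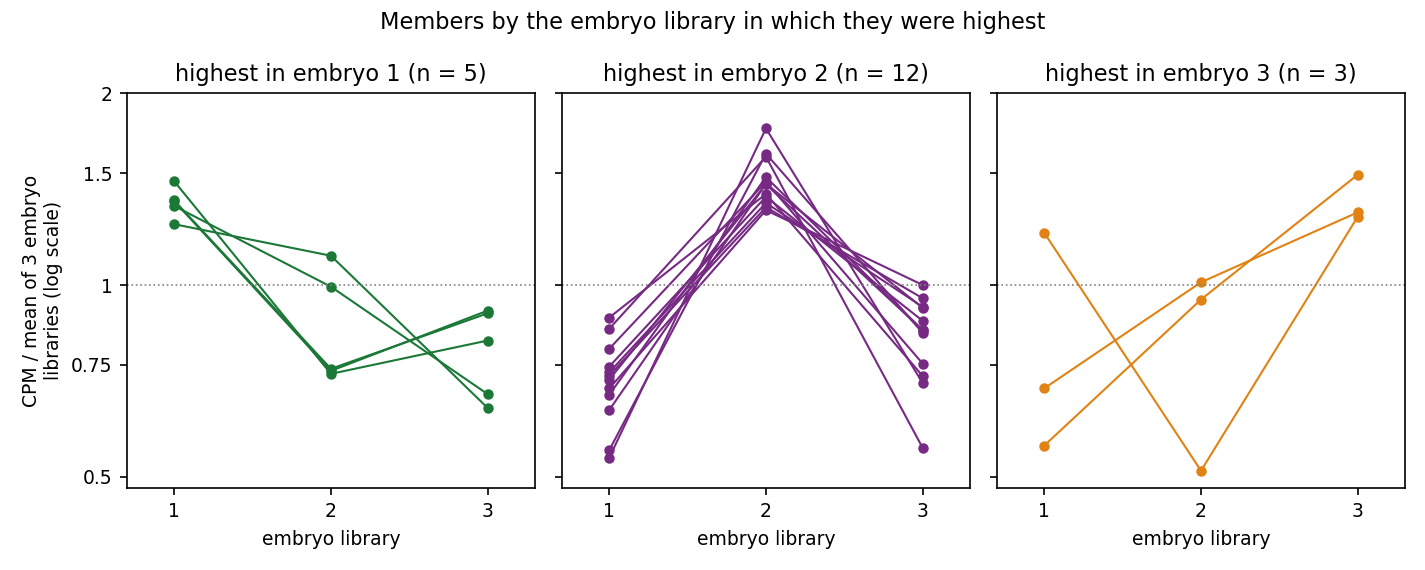
CPM of each member in the 3 embryo libraries divided by its own embryo mean, on a log axis, with 1 line per member and a panel for each library as the highest. The 12 members of the middle panel peak in embryo library 2. The libraries have no order, and lines only join the values of a member.

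Among the members highest in embryo library 2, ENSGALG00000037220 was the most variable and, in embryos, the most abundant. It had 111, 109 and 115 CPM in ES cells and 87.2, 287 and 114 CPM in embryo libraries 1 to 3. Embryo library 2 stood apart, at 2.51 times the next embryo, and the ES cells lay between the lowest and the highest embryo. Its spread of 3.29 had a counting interval of 3.10 to 3.50. ENSGALG00000012870 had 48.1, 48.7 and 46.6 CPM in ES cells and 65.8, 123 and 42.8 CPM in embryo libraries 1 to 3, so that here library 3 was lowest. ENSGALG00000023904, the most abundant member in ES cells, had 611, 632 and 622 CPM there and 49.1, 90.7 and 57.9 CPM in embryo libraries 1 to 3. All its ES cell libraries lay far above every embryo.

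ENSGALG00000006374, singled out after its values were seen because its spread of 2.92 is the second highest, had 21.0, 21.4 and 21.6 CPM in ES cells and 27.2, 79.5 and 41.5 CPM in embryo libraries 1 to 3. The ES cells were below all embryos. ENSGALG00000042607 is the only member whose gene model is alike in both groups' files, with the same single transcript of 828 bases. It had 12.7, 14.2 and 13.4 CPM in ES cells and 22.9, 42.0 and 30.2 CPM in embryo libraries 1 to 3. In 11 of the 12 members of this pattern the middle embryo lay nearer the lowest than the highest on a log scale. The rule used these embryo values, so this is a description, and no share for other IDs of this pattern is given. The highest library was 1.31 to 2.51 times the middle one, with a median of 1.63.

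The 5 members highest in embryo library 1 included 4 called lower in the ES cells in the edgeR fit given below. Of all IDs tested, 43.2% were called lower, as were 3046 of the 6275 other IDs past the level limits. With only 5 members, grouped by embryo values that the rule used, this count is a description. Among the 4, ENSGALG00000040371 had 15.2 to 16.5 CPM in ES cells, within its embryo range of 14.2 to 28.0 CPM. ENSGALG00000004917, the most abundant of the 5 in embryos, had 1.13, 1.28 and 1.44 CPM in ES cells and 164, 88.6 and 110 CPM in embryo libraries 1 to 3. The ES cell values rest on 14.53 to 18.25 expected counts, and these counts are not whole numbers. ENSGALG00000016651 had 14.6, 14.6 and 13.9 CPM in ES cells and 115, 62.4 and 76.2 CPM in embryo libraries 1 to 3. Both members had the same order of embryos, library 1 above library 3 above library 2. ENSGALG00000007127 went the other way between the groups, with 238, 238 and 240 CPM in ES cells and 76.0, 67.8 and 39.1 CPM in embryo libraries 1 to 3. Here embryo library 3 was the one that stood apart, on the low side.

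Only 3 members were highest in embryo library 3, and in all 3 the middle embryo lay nearer the highest. ENSGALG00000033178, the most abundant of them, had 57.9, 57.7 and 61.4 CPM in ES cells and 24.8, 36.4 and 46.9 CPM in embryo libraries 1 to 3. ENSGALG00000002911, singled out after its values were seen, had 51.8, 51.4 and 52.7 CPM in ES cells and 29.3, 12.4 and 31.0 CPM in embryo libraries 1 to 3. Embryo libraries 1 and 3 were close together, and library 2 stood apart with 204 counts. ENSGALG00000026970, also singled out after its values were seen, had 13.6, 17.0 and 16.7 CPM in ES cells and 13.3, 22.6 and 35.4 CPM in embryo libraries 1 to 3. Across all 20 members the middle embryo was nearer the lowest in 14 and nearer the highest in 6. Among the other IDs of all patterns it was nearer the lowest in 54.3%. The counts of members come from values the rule used and carry no test.

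The same transcripts varied little between the ES cell libraries, a measure that the rule did not use. Their spread in ES cells was 1.01 to 1.52 with a median of 1.06, and the median of the other IDs past the level limits was 1.07. Of the 20 members, 15 had a spread of 1.1 or less in ES cells and 8 were above the median of the other IDs. The 3 members above 1.2 were ENSGALG00000004758, ENSGALG00000004917 and ENSGALG00000026970, the first 2 of which had 1.28 to 1.95 and 1.13 to 1.44 CPM in ES cells and thus few counts. Over the 18 members with at least 10 CPM in ES cells the median was 1.05, against 1.07 for 5977 other IDs at that level. The coefficient of variation of the members had a median of 2.75% in ES cells and 36.8% in embryos, against 3.46% and 6.61% for the other IDs. The embryo value of the members is high by choice, because the rule set a limit on their spread in embryos. Genes are not independent replicates, so no test was made of these medians. With the groups exchanged, the same limits were met by 2 of 6429 IDs in ES cells, against 20 of 6295 in embryos. Those 20 are the members themselves, so the contrast is a description with no test. The labels do not say whether the ES cell libraries were separate cultures, so a smaller spread there may be technical.

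**Figure D3:**
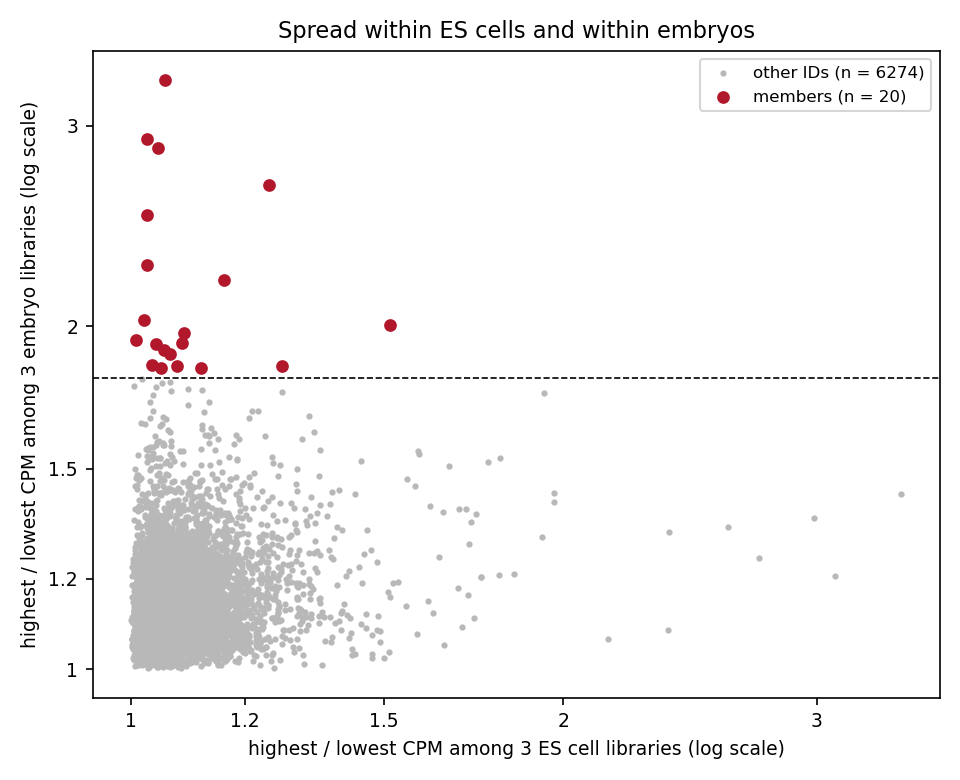
Highest over lowest CPM among the 3 ES cell libraries (horizontal, log axis) and among the 3 embryo libraries (vertical, log axis) for 20 members (red) and 6274 other IDs (grey), with the limit of 1.8 dashed. An ID with a count of 0 in an ES cell library is not drawn. The members sit above the line by choice, and 15 of the 20 lie at 1.1 or less on the horizontal axis, where most other IDs lie too.

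The rule did not use the gene models. A single transcript was listed for 10 of 20 members in the ES cell files and for 16 of 20 in the embryo files, against 48.2% and 54.2% of the other IDs. The model was alike in both groups' files for 1 of 20 members (5.0%), ENSGALG00000042607, near the 7.95% of the other IDs. Counts were whole numbers in all 6 libraries for 19 of 20 members, against 83.8% of the other IDs, the exception being ENSGALG00000004917. RSEM gives fractional counts where it divides reads between genes. The model length in the embryo files was 603 to 4013 bases with a median of 2023, against 2421 for the other IDs. Among the 4 members with several transcripts in the embryo files, the mean transcript length differed between embryo libraries by at most 1.07-fold. That value was of ENSGALG00000012870, at 1710, 1820 and 1706 bases in embryo libraries 1 to 3, longest where its level was highest. The median of this ratio was 1.02 for the 4 members and 1.01 for the other IDs with several transcripts.

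Per length, the members covered a wide range of levels in TPM (transcript abundance scaled to 1000000 per library). In ES cells ENSGALG00000023904 was highest at 475 ± 7.18 TPM and ENSGALG00000004758 lowest at 0.817 ± 0.172 TPM (SD, n = 3). In embryos ENSGALG00000037220 was highest at 168 ± 113 TPM and ENSGALG00000004758 lowest at 11.4 ± 4.78 TPM (SD, n = 3). ENSGALG00000023444, with a short model of 603 bases in the embryo files, followed in embryos at 126 ± 39.5 TPM and stood at 190 ± 7.20 TPM in ES cells (SD, n = 3). Its model was 482 bases in the ES cell files, so these 2 TPM values rest on unlike lengths. In CPM its means were 44.2 in ES cells and 36.1 in embryos. The first and second of this order in embryos do not differ beyond their spread. The spread of members in TPM was 1.79 to 3.22 among embryos.

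In ES cells against embryos, 17 of the 20 members passed the test, 8 higher and 9 lower in ES cells (edgeR quasi-likelihood test over 11614 IDs, Benjamini-Hochberg adjusted p under 0.05). The share called was 85.1% of all IDs tested, 41.9% higher and 43.2% lower, and 86.5% of the IDs past the level limits, so the members' 85.0% is near the background. The rule used mean levels of both groups, and the count supports nothing on how members were chosen. The median log2 fold change was -0.20 for the members and -0.12 for the other IDs past the level limits. The median standard error was 0.19 for the members and 0.07 for the other IDs. ES cells and embryos did not overlap for 13 of 20 members (65.0%), 8 with ES cells above and 5 with ES cells below. The background was 86.1% of all IDs tested, 43.4% with ES cells above and 42.7% below, and 87.4% of the IDs past the level limits. The rule chose members for a wide embryo range, which by itself raises their standard error and their overlap. Neither contrast with the background is therefore a finding about the members. In all 7 members that overlapped, every ES cell library lay between the lowest and the highest embryo. The wide embryo range set by the rule makes this likely by itself. Embryo library 2 was the highest in 5 of the 7, and in 12 of all 20 members, so the 5 are near the share of the whole set.

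ENSGALG00000023904 rose by 3.21 ± 0.16 on the log2 scale in ES cells over embryos (SE, adjusted p = 1.49e-09 with edgeR), the largest rise among the members. ENSGALG00000007127 rose by 1.94 ± 0.16 (SE, adjusted p = 1.1e-07 with edgeR). ENSGALG00000033178 rose by 0.68 ± 0.17 (SE, adjusted p = 0.00266 with edgeR), the smallest rise that passed. In all 3 no embryo library reached the lowest ES cell library.

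The largest fall was that of ENSGALG00000004917, at -6.56 ± 0.28 on the log2 scale (SE, adjusted p = 3.27e-10 with edgeR). Its model was 1200 bases in the ES cell files and 2697 in the embryo files, and with effective length as an offset the log2 fold change was -5.41. ENSGALG00000016651 stood at -2.58 ± 0.19 on the log2 scale (SE, adjusted p = 4.54e-08 with edgeR). ENSGALG00000042607, the member with like models, stood at -1.27 ± 0.19 on the log2 scale (SE, adjusted p = 3.3e-05 with edgeR). In these 3 members the highest ES cell library lay below the lowest embryo.

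ENSGALG00000037220, the most variable member, did not pass, at -0.57 ± 0.32 on the log2 scale (SE, adjusted p = 0.111 with edgeR). It passed at -0.88 without embryo library 1 and at -0.75 with the length offset, while without embryo library 2 its sign turned, to 0.10, and it did not pass. ENSGALG00000012870 passed at -0.72 ± 0.27 (SE, adjusted p = 0.0241 with edgeR) although its ES cell libraries lay within the range of the embryos. Its call was lost without embryo library 2, at -0.22, without any 1 of the ES cell libraries, at -0.69 to -0.72, with the length offset, at -0.38, and with DESeq2, at -0.73.

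A further 5 IDs had calls that turned on the libraries or settings, and were singled out for that reason. The calls of ENSGALG00000026970 (-0.63) and ENSGALG00000040371 (-0.41) were each lost without any 1 ES cell library and without the embryo library in which the member was highest, at -0.21 without library 3 and -0.18 without library 1. ENSGALG00000026970 also lost its call with DESeq2, at -0.65, and ENSGALG00000040371 with library size alone, at -0.39, and with no filter, at -0.40. ENSGALG00000016426 (0.01, with a sign that turned in 5 of the 12 alternatives) and ENSGALG00000023444 (0.26) were not called with all libraries. They passed without embryo library 2, at 0.40 and 0.52. ENSGALG00000023444 also passed with the length offset, at 0.61, and with the sample number as a replicate block, at 0.29. ENSGALG00000012032 was called lower at -0.53 and not with DESeq2, at -0.55. Its embryo model is 1.86 times as long as its ES cell model. With the length offset its log2 fold change was therefore 0.32, which did not pass (adjusted p = 0.116 with edgeR). The remaining 13 calls, 8 higher and 5 lower, passed in each of the 12 alternatives run. None of these alternatives counted reads on a gene model common to both groups. Of the 13, only ENSGALG00000042607 had like models, so the fold changes of the others stay uncertain.

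**Figure D4:**
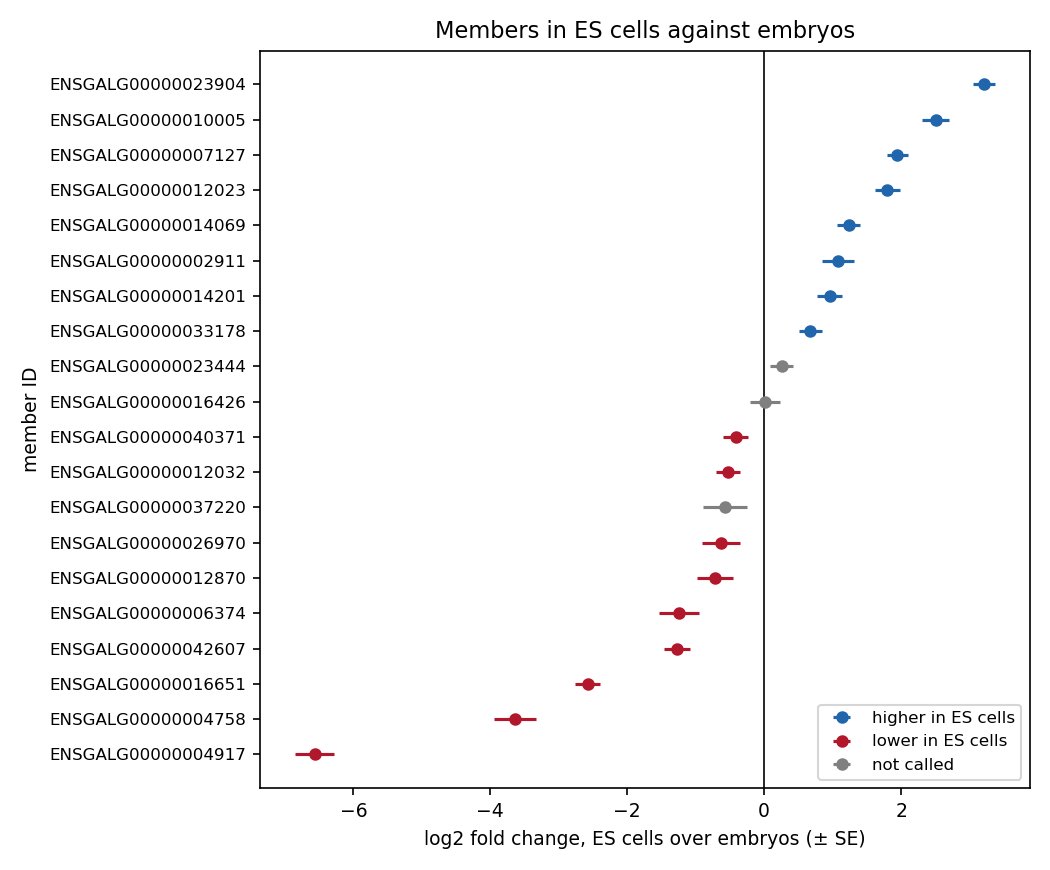
Log2 fold change of ES cells over embryos for each member with its standard error (bars), from the edgeR fit of 3 libraries per group, with colours for members that passed as higher or lower in ES cells and for the 3 that did not pass. The 8 members that were higher lie between 0.68 and 3.21, and the 9 that were lower between -6.56 and -0.41.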

How the data were processed

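RNA was column-purified and sequenced on BGISEQ-500 libraries, according to the labels. The submitters' processing notes name FastQC, STAR, RSEM and DESeq2 but no version. The genome build is not given in the sources used here, nor is the annotation. The authors deposited 1 RSEM table per library with expected counts (estimated read counts, not normalized) and TPM per gene ID, per the file headers. The ES cell and embryo tables use different gene models, so a fold change of an ID with unlike models is uncertain. Expected counts are whole, within 1e-09, for 91.0% to 93.9% of listed values. Lengths in bases are RSEM's mean over an ID's transcripts, weighted in each library by their estimated abundance. A model counts as alike with 1 transcript of the same ID and length.

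Members and lists were chosen with earlier results of these data known. CPM used the sum over the shared IDs, where 3 counts correspond to 0.182 to 0.241 CPM. The main test on rounded counts was the quasi-likelihood test of edgeR 4.0.16 (R 4.3.3, TMM factors, filterByExpr, ES cells against embryos, 6 libraries), with DESeq2 1.42.0 among the alternatives. All 20 members passed the low-count filter. On counts simulated for this comparison over 11614 IDs, 50 of 50 IDs changed 2-fold and 44 of 50 changed 1.5-fold were called, with 10 of 11414 unchanged. The simulated counts had the same dispersion for every ID in both groups. These shares therefore do not apply to the members, whose coefficient of variation in embryos had a median of 36.8%. Named IDs were, for each highest embryo library, the 3 with the largest spread at 50 CPM or more in embryos and the most abundant. To these came the pairs nearest the limit and the largest and most abundant change each way. Symbol lists could not be run, because the sources used here gave no name for any ID. This is a gap in those sources and does not mean that the genes are unnamed. Figures were drawn with matplotlib 3.10.9.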

Additional observations from a re-analysis of the deposited data

Results flagged for a closer look

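The rule could only reach IDs listed for both groups and present in ES cells, and signal lay outside it. Of 348 IDs listed in the embryo files only with a mean of at least 20 CPM, 7 (2.01%) had a spread of 1.8 or more. All 7 had fractional counts, so reads shared with other IDs enter their levels. Counts were whole for 19 of the 20 members, but members are IDs listed for both groups. The share with fractional counts among all 348 is not given here, so fractional counts are not shown to be particular to the 7. The largest spread was that of ENSGALG00000050597, with 60.9, 7.23 and 17.1 CPM in embryo libraries 1 to 3. Of the 7, 3 had a single transcript of 1473 bases and were highest in embryo library 3. Summed over all 14 IDs of that length listed in the embryo files only, the level was 1675, 1628 and 2255 CPM in embryo libraries 1 to 3, a spread of 1.38. How reads were shared between these IDs was not tested.

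A further 34 shared IDs had at least 20 CPM in embryos and under 0.5 CPM in ES cells, and 3 (8.82%) of them had a spread of 1.8 or more. ENSGALG00000033517 was the most variable, with 83.5, 33.5 and 46.0 CPM in embryo libraries 1 to 3. No group had enough libraries for the search for a single outlying library.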

How the results depend on the processing

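The number of members follows the limits. It was 118 at a spread of 1.5, 5 at 2.5 and 6 at a mean of 50 CPM. Among like models, which only 499 of the 6275 other IDs past the level limits had, it was 1. In TPM it was 27 (12 of them members). Without embryo library 1, 2 or 3 it was 8, 5 and 18, of which 6, 4 and 15 were members. Members highest in embryo library 3 numbered 3, and 17 at a spread of 1.5, 6 in TPM, 0 at 50 CPM, 0 among like models and 1 to 2 without embryo library 1 or 2. Without library 3 that count has no value. The median spread in ES cells was 1.13 in TPM and 1.12 among like models, and 1.03 to 1.04 with an ES cell library left out. Narrower limits leave fewer IDs by construction. In the deposited TPM, 7 of the 20 members had an embryo mean under 20 and 2 had a spread under 1.8. For the other TPM values the cause was not tested. In ES cells against embryos 14 to 18 members and 9633 to 9959 IDs were called with each library left out. Other settings called 14 to 18 members and 9754 to 10706 IDs. The sign turned for ENSGALG00000012032 (0.32 with the length offset, where it did not pass). Among members not called it turned for ENSGALG00000037220 (-0.88 to 0.10 leaving out libraries, with 0.10 without embryo library 2) and ENSGALG00000016426. ENSGALG00000016426 was at -0.17 with the length offset, -0.0084 with DESeq2 size factors, and -0.22 to 0.40 leaving out libraries, below 0 without embryo library 1, embryo library 3 or ES cell library 3. Of 240 fold changes under alternatives, 209 kept direction and side of the threshold. Same-numbered libraries' deviations correlated at 0.016, 0.003 and -0.052, and the numbers were not treated as pairs. With the replicate block 18 members and 9823 IDs were called, and ENSGALG00000023444 passed (log2 fold change 0.29, adjusted p = 0.0446 with edgeR).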
